A study of Homo sapiens with 9 samples.

Results

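The chromatin remodelers examined here were 40 genes in a genome-wide CRISPR-Cas9 knockout screen of HEL cells, 40 of the 19114 genes that the screen targeted. They were taken by name, as genes of the BAF (mammalian SWI/SNF), ISWI, CHD and INO80 families, by a rule that uses no measured value. HEL is a human erythroleukemia line with mutated JAK2. All cells carried Cas9 and the Brunello knockout library, and guide DNA was read in 1 baseline library at day 0, in 4 libraries at day 12 under 200 nM of the JAK inhibitor ruxolitinib (RUX) and in 4 libraries at day 12 under DMSO, the control. The screen read guide DNA alone, so neither the expression of a remodeler in HEL cells nor the loss of its protein was measured here.

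Chromatin remodelers use ATP to slide, evict or exchange nucleosomes, and so set which stretches of DNA other proteins can reach. BAF complexes are built around 1 of the ATPases SMARCA4 and SMARCA2 and come in 3 forms, with ARID1A or ARID1B in canonical BAF (cBAF), ARID2 and PBRM1 in PBAF, and BRD9 in non-canonical BAF (ncBAF). ISWI ATPases space nucleosomes in regular arrays, and CHD proteins move nucleosomes and carry chromodomains. INO80 slides nucleosomes and acts on those that hold the variant histone H2A.Z. In blood cells, remodelers open the enhancers on which lineage transcription factors act.

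In a pooled knockout screen, the share of a guide falls when the cells that carry it are outgrown. The score of a gene was the mean over its guides of the natural log (ln) of the day 12 value over the day 0 value, after each library was scaled to the 1000 non-targeting control guides, and 5 was added to every value. A score of 0 is the behaviour of the control guides, and −0.5 was used as a reference line. The study drew its line for a dependency at the same number but on another scale, that of MAGeCK beta scores corrected for copy number. The scores here are mean ln ratios with no such correction, so a gene below −0.5 here need not be below it there. All 40 genes had 4 guides each in the table and all 40 were scored. Of their 160 guides, 159 had the required day 0 value of at least 30, and the other one was a guide of ARID1B. Both conditions were set against the same day 0 library, which had no replicate.

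Depth was similar across the screen, with 19631338 to 26611323 reads on guides in the 9 libraries and a median of 235 reads per guide at day 0. DMSO replicate 3 stood apart from the others. Its control guides had an SD of 0.46 on the ln scale, against 0.26 to 0.30 in the other 7 day 12 libraries. For several genes that it moved, the values are given with and without it. Essential genes give the scale of a strong score, with the ribosomal gene RPL8 at −2.01 under RUX, the replication clamp PCNA at −0.97 and the replication factor RPA3 at −0.88. In 247 sets of 4 control guides, taken as mock genes, the lowest and highest scores under RUX were −0.22 and 0.30, and those under DMSO were −0.47 and 0.28.

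Most remodelers scored near the control guides, and few lay below −0.5. Under RUX 3 of the 40 genes lay below −0.5, RUVBL1, ARID1A and CHD8, which is 7.5% against 4.63% of all 19112 scored genes. Under DMSO there were also 3, RUVBL1, CHD8 and INO80 (7.5% against 4.32%). At limma's adjusted p, ARID1A was lower than day 0 under RUX, 1 of 40 genes against 1.58% of all genes, and 0 of 40 were lower under DMSO, where 1.15% of all genes were. At an unadjusted p under 0.05, 4 of the 40 genes were lower than day 0 under DMSO (RUVBL1, CHD8, INO80 and ARID1A), against 8.39% of all genes, and 1 was higher (BAZ2A), against 1.03%. Under RUX the same threshold gave 5 lower (RUVBL1, ARID1A, CHD8, CHD2 and BPTF), against 9.5% of all genes, and 2 higher (BAZ2A and CHD1), against 0.638%. For the lower genes these shares lay near those of all genes. On summed reads edgeR and DESeq2 also called 0 under DMSO. The median score of the 40 genes was −0.10 under RUX and −0.09 under DMSO, and that of all genes −0.09 and −0.08.

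Set against the mock genes, 26 of the 40 remodelers lay inside the range of the control guides under RUX, 13 below it and 1, BAZ2A, above it. Leaving out its guide sg_30376 put BAZ2A inside the range, at 0.15 under RUX. Of all genes, 74% lay inside this range and 24.9% below. Under DMSO 36 lay inside and 3 below, against 93.1% and 5.02% of all genes. Of single guides, 22 of the 159 (13.8%) had a mean ln ratio below −0.5 under RUX and 21 (13.2%) under DMSO, against 11.8% and 11.8% of all 75432 guides. These 22 guides were spread over 16 genes, and 2 genes, RUVBL1 and ARID1A, had at least 3 such guides under RUX, against 1.85% of all genes. For ARID1A this count rested on sg_21515, which was barely past the line at −0.503. Under DMSO only RUVBL1 had 3, against 1.82%.

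**Figure D1:**
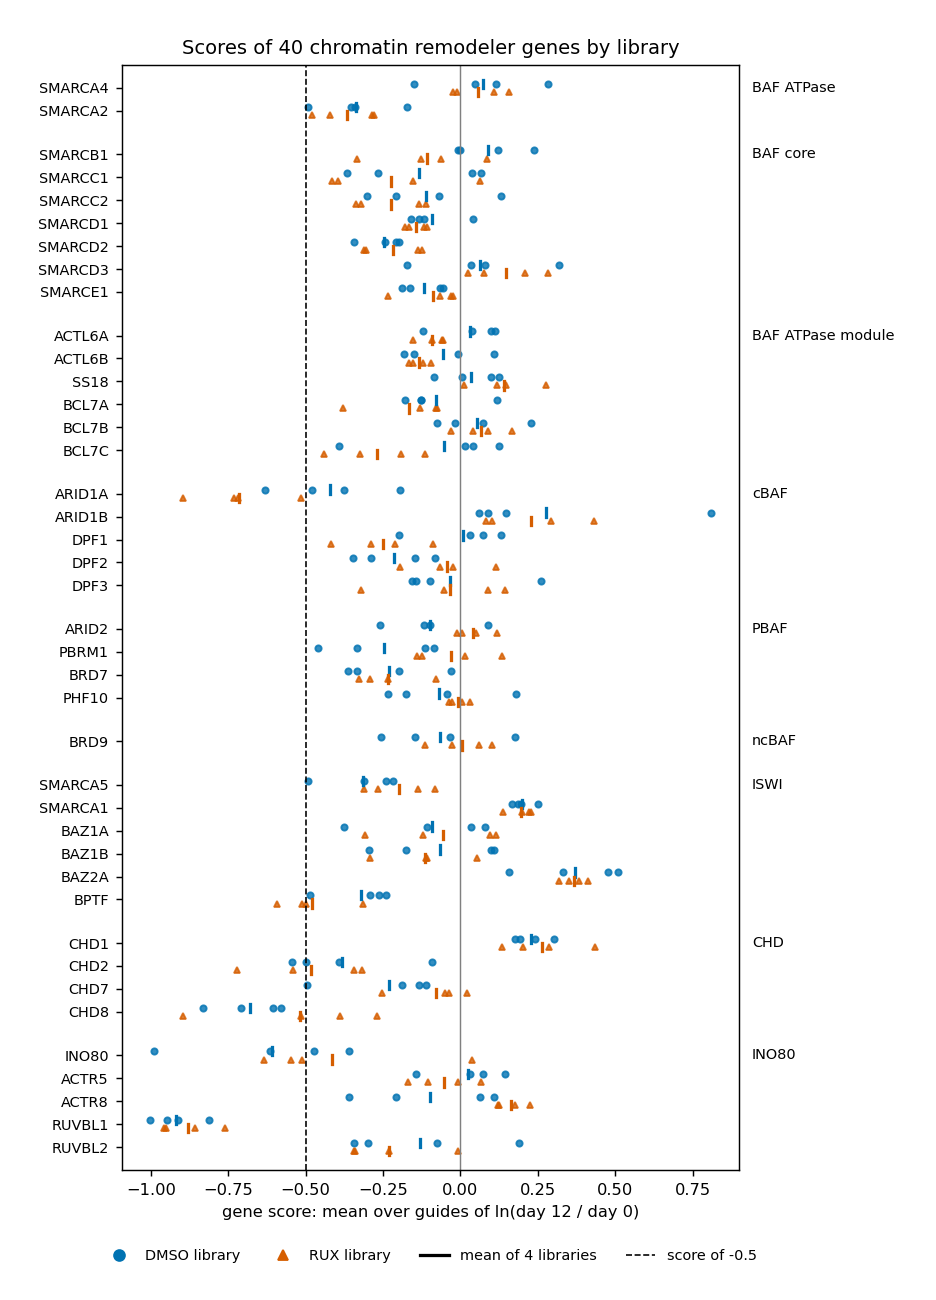
Gene scores of the 40 remodelers on the ln scale, 1 row per gene in the order of the families, with a circle for each of 4 DMSO libraries, a triangle for each of 4 RUX libraries, short bars for their means and a dashed line at −0.5. The RUX means of RUVBL1, ARID1A and CHD8 lie past the line, and single RUX libraries of INO80, BPTF and CHD2 also reach past it. Most rows, SMARCA4 among them, straddle 0.

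RUVBL1 had the lowest score of the 40 genes. It encodes an AAA+ ATPase that forms a ring with RUVBL2, and this ring is shared by INO80, SRCAP, the TIP60 acetyltransferase complex and chaperone assemblies outside chromatin. Its score was −0.95, −0.81, −1.004 and −0.91 in the 4 DMSO libraries and −0.86, −0.76, −0.95 and −0.96 in the 4 RUX libraries. All 8 libraries lay below −0.5, the conditions overlapped, and the means were −0.88 ± 0.09 under RUX and −0.92 ± 0.08 under DMSO (SD, n = 4). About 41.4% of the guide level of day 0 was left under RUX, close to the 41.5% of RPA3, and RUVBL1 ranked 183 from the bottom among 19112 genes. The difference from day 0 missed limma's threshold (adjusted p = 0.076 under RUX and 0.069 under DMSO).

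The guides of RUVBL1 were uneven. Under RUX sg_22424 stood at −1.53, sg_22421 at −1.52 and sg_22423 at −0.67, while sg_22422 stood at 0.20. The same guide was the one above 0 under DMSO, at 0.15, where the others had −0.86, −1.84 and −1.13. The 2 deepest guides had 278 and 143 reads at day 0 and went opposite ways, sg_22421 ending with 53 to 68 reads under RUX and sg_22422 with 145 to 258. Without the guide farthest from the rest, the score of RUVBL1 was −1.24 under RUX. RUVBL1 lies on chromosome 3 (128064778 to 128153914, GRCh38), and of its 20 nearest scored genes 1 had a lower score under RUX.

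RUVBL2, the partner of RUVBL1 in the ring, did not score like it. Its scores were 0.19, −0.34, −0.30 and −0.07 under DMSO and −0.34, −0.01, −0.34 and −0.23 under RUX, and every library lay above all 8 scores of RUVBL1. The means were −0.23 ± 0.16 under RUX (adjusted p = 0.75) and −0.13 ± 0.24 under DMSO. One guide of RUVBL2, sg_29332, was as low as −0.83 under RUX and −0.82 under DMSO, and its other guides ran from −0.27 to 0.39 under RUX. No test compared the 2 genes, which were read in the same libraries.

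ARID1A was the one gene of the 40 whose fall from day 0 passed over all genes. It encodes the large DNA-binding subunit that defines cBAF and is often mutated in cancer. Under DMSO its score was −0.63, −0.48, −0.20 and −0.38, and under RUX −0.52, −0.72, −0.90 and −0.73. All 4 RUX libraries lay below −0.5, 1 DMSO library did, and the conditions overlapped. The mean was −0.72 ± 0.16 under RUX (adjusted p = 0.042), which left 48.9% of the guide level, and −0.42 ± 0.18 under DMSO (adjusted p = 0.48), which left 65.7%. Without DMSO replicate 3 the DMSO mean was −0.496, close to the line of −0.5. The call under RUX lay close to the threshold, and it was lost when any of RUX replicates 2, 3 or 4 or DMSO replicate 4 was left out (adjusted p from 0.053 to 0.097), with edgeR on summed reads (0.065) and with scaling over all guides (0.14). It was kept in 8 of 23 alternatives, while the score itself stayed below −0.5 in all 23, between −0.78 and −0.61.

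All 4 guides of ARID1A were below 0 in both conditions. Under RUX sg_21514 stood at −1.04, sg_21513 at −1.02, sg_21515 at −0.50 and sg_21516 at −0.30. Under DMSO the same guides stood at −0.33, −0.80, −0.17 and −0.38. The largest gap between conditions was that of sg_21514, which had 170 reads at day 0, 110 to 203 under DMSO and 37 to 87 under RUX. ARID1A lies on chromosome 1 (26693236 to 26782104, GRCh38), and 0 of its 20 nearest scored genes had a lower score in either condition.

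ARID1B, the paralog that can take the place of ARID1A in cBAF, stood on the other side of 0. Its score, from 3 guides, was 0.06, 0.15, 0.81 and 0.09 under DMSO and 0.10, 0.08, 0.43 and 0.29 under RUX. No library was below 0, and the highest value came from DMSO replicate 3, without which the DMSO mean was 0.10 in place of 0.28. The mean under RUX was 0.23 ± 0.17 (adjusted p = 0.70). The guide left out, sg_45621, had 29 reads at day 0 and 5 to 53 reads afterwards.

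**Figure D2:**
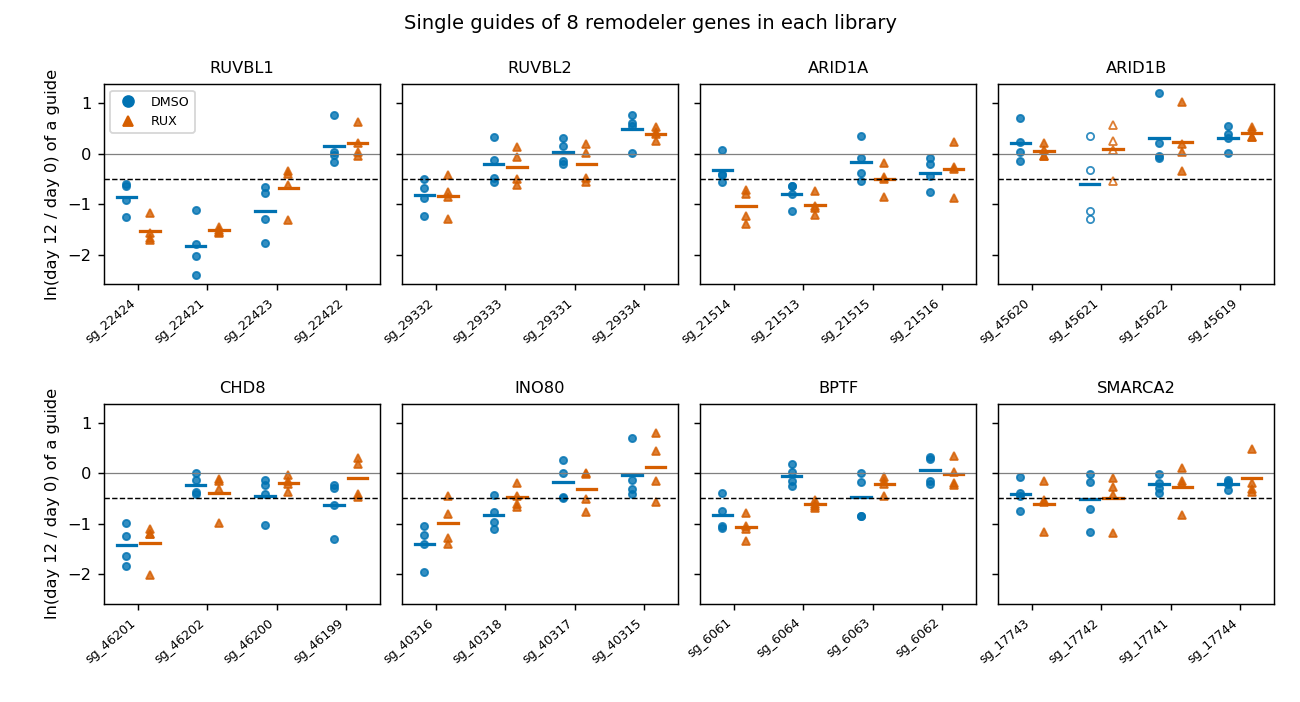
Ln ratio of day 12 to day 0 for each of the 4 guides of 8 remodeler genes, with a circle per DMSO library, a triangle per RUX library, bars for the means, open symbols for the ARID1B guide that was not scored, and dashed lines at −0.5. For RUVBL1, 3 of 4 guides lie below the line and 1 above 0, and for ARID1A all 4 means lie below 0.

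With all guides used, the other cBAF subunits were closer to the control guides. DPF1, DPF2 and DPF3 are paralogs with PHD fingers that bind acetylated histone tails, and DPF2 is the broadly expressed one. DPF2 stood at −0.04 under RUX and −0.22 under DMSO, DPF1 at −0.25 and 0.01, and DPF3 at −0.04 and −0.04. The score of DPF2 leaned on sg_16014, at 0.63 under RUX and 0.48 under DMSO, without which it was at −0.27 and −0.45. Without their farthest guides, DPF1 was at −0.44 and −0.11 and DPF3 at −0.13 and −0.20. Under DMSO the score of DPF3 was 0.26 in DMSO replicate 3 against −0.16 to −0.10 in the others. Across the 5 cBAF genes the median was −0.04 in both conditions, and under DMSO −0.13 without DMSO replicate 3. Under RUX it lay between −0.10 and −0.04 when 1 library was left out.

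The ATPases of BAF stayed above −0.5. SMARCA4, the catalytic subunit known as BRG1, was at 0.12, 0.28, 0.05 and −0.15 under DMSO and at 0.16, −0.02, 0.11 and −0.01 under RUX. Its means of 0.07 ± 0.18 and 0.06 ± 0.09 lay among the control guides, none of its 4 guides was below −0.5, and 18 of its 20 nearest genes on chromosome 19 scored lower in each condition. That its means were above 0 rested on sg_17751, which had 98 reads at day 0 and stood at 0.66 under RUX and 0.77 under DMSO. Without this guide the score of SMARCA4 was −0.14 under RUX and −0.16 under DMSO. SMARCA2, the paralog known as BRM, was at −0.34, −0.49, −0.35 and −0.17 under DMSO and at −0.29, −0.48, −0.28 and −0.42 under RUX. Every library of SMARCA2 was below 0 and above −0.5, with means of −0.34 ± 0.13 and −0.37 ± 0.10 (adjusted p = 0.58 and 0.50).

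SMARCA2 lies near the end of the short arm of chromosome 9 (1980290 to 2193624, GRCh38), on the same arm as JAK2. Many genes of this stretch scored low: of the 64 other scored genes within the first 20 Mb, 16 (25%) lay below −0.5 under RUX and 15 (23.4%) under DMSO, with medians of −0.28 and −0.26. Of these, 23 scored lower than SMARCA2 under RUX and 24 under DMSO. JAK2 itself, the mutated kinase of HEL cells, stood at −1.23 and −1.10. With the median of its 19 neighbours subtracted, SMARCA2 stood at −0.13 under RUX and −0.16 under DMSO. The part that the position on this arm has in the score of SMARCA2 was not tested.

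**Figure D3:**
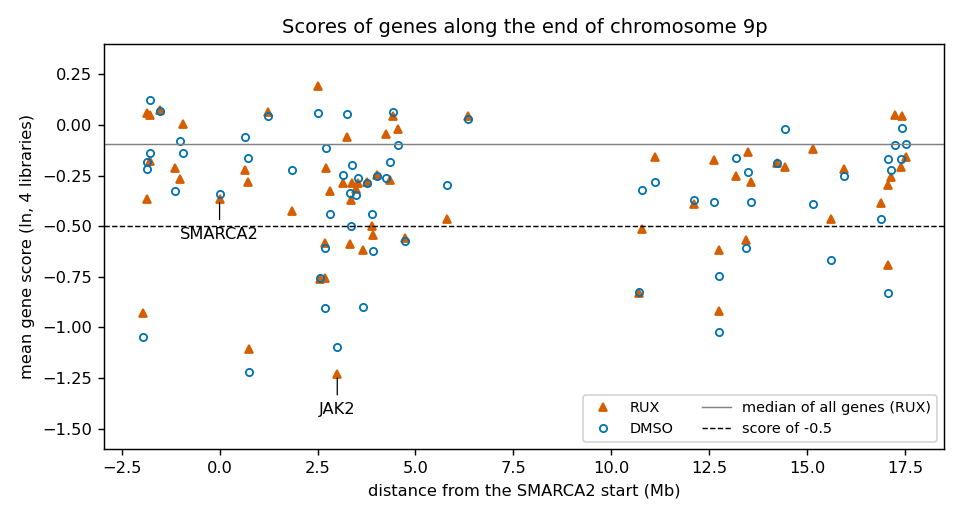
Mean gene scores (ln, 4 libraries per condition) of the genes in the first 20 Mb of chromosome 9, by distance from the SMARCA2 start in Mb, with triangles for RUX, open circles for DMSO, a grey line at the median of all genes under RUX and a dashed line at −0.5. SMARCA2 sits at −0.37 and −0.34 amid neighbours that reach far below −0.5.

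The core subunits on which the BAF ATPases are assembled gave a median of −0.14 under RUX and −0.11 under DMSO over 7 genes. SMARCB1, the subunit that contacts the acidic patch of the nucleosome and is lost in rhabdoid tumours, was at −0.11 under RUX and 0.09 under DMSO. Its guides ran from −0.70 to 0.31 under RUX. The scaffolds SMARCC1 and SMARCC2 were at −0.23 and −0.23 under RUX and at −0.13 and −0.11 under DMSO. Of the paralogs SMARCD1, SMARCD2 and SMARCD3, which link transcription factors to BAF, the first was at −0.14 and −0.09, SMARCD2, the form known from granulocyte development, at −0.22 and −0.25, and SMARCD3 at 0.15 and 0.06. SMARCE1, which carries an HMG domain, was at −0.09 and −0.12.

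Subunits that join the ATPase gave a median of −0.11 under RUX and −0.01 under DMSO over 6 genes. ACTL6A, an actin-like protein that INO80 also holds, was at −0.09 under RUX and 0.03 under DMSO, and its neuronal paralog ACTL6B at −0.13 and −0.06. SS18, which is fused to SSX genes in synovial sarcoma, was at 0.14 and 0.04. BCL7A was at −0.17 and −0.08, BCL7B at 0.07 and 0.05, and BCL7C at −0.27 and −0.05. The adjusted p of these 6 genes was 0.69 or higher in each condition.

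PBAF and ncBAF subunits all stayed above −0.5. ARID2, which takes the place of ARID1A in PBAF, was at 0.04 under RUX and −0.10 under DMSO. PBRM1, whose bromodomains bind acetylated histones, was at −0.14, 0.13, −0.12 and 0.02 under RUX and at −0.46, −0.09, −0.33 and −0.11 under DMSO. The bromodomain protein BRD7 was at −0.23 in both conditions, and PHF10 at −0.01 and −0.07. BRD9, the bromodomain subunit of ncBAF, was at 0.00 under RUX and −0.07 under DMSO. The median of the 4 PBAF genes was −0.02 under RUX and −0.16 under DMSO, and each gene overlapped between conditions.

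Of the ISWI genes, BPTF came closest to the threshold. It encodes the largest subunit of NURF, which reads trimethylated lysine on histone H3. Its score was −0.51, −0.50, −0.59 and −0.31 under RUX and −0.29, −0.26, −0.48 and −0.24 under DMSO. The conditions overlapped, with means of −0.48 ± 0.12 (adjusted p = 0.28) and −0.32 ± 0.11 (adjusted p = 0.62). Guides sg_6061 and sg_6064 stood at −1.07 and −0.61 under RUX and the others at −0.22 and −0.01. BPTF fell just outside −0.5 under RUX in this scoring and inside it with edgeR or DESeq2 on summed reads and without RUX replicate 4.

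The ISWI ATPases stayed above −0.5, and neither passed against day 0. SMARCA5, the broadly expressed ATPase known as SNF2H and required in mouse erythropoiesis, was at −0.20 under RUX and −0.32 under DMSO, with 1 of 4 guides below −0.5. SMARCA1, its paralog SNF2L, was at 0.20 and 0.20, and its guides ran from −0.49 to 1.06 under RUX, the highest being sg_17738, with 42 reads at day 0. Without this guide SMARCA1 was at −0.09 under RUX and −0.12 under DMSO, on the same side of 0 as SMARCA5. The regulatory partners BAZ1A, of the ACF complex, and BAZ1B, of WICH, were at −0.06 and −0.11 under RUX. BAZ2A, the partner of SMARCA5 in the nucleolar complex NoRC, had the highest score of the 40 genes, 0.35, 0.41, 0.32 and 0.38 under RUX and 0.33, 0.51, 0.16 and 0.48 under DMSO. All 8 values were above 0, but the difference from day 0 missed the threshold (adjusted p = 0.47 and 0.50). Under RUX the score leaned on sg_30376, which had 78 reads at day 0 and stood at 1.01. Without this guide BAZ2A was at 0.15 under RUX, inside the range of the control guides.

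Among the CHD genes, CHD8 was below the threshold in each condition. It encodes a chromodomain helicase that acts on active promoters and is known as an autism gene. Its score was −0.61, −0.71, −0.83 and −0.58 under DMSO and −0.90, −0.52, −0.27 and −0.39 under RUX. All 4 DMSO libraries and 2 RUX libraries lay below −0.5, with means of −0.68 ± 0.11 (adjusted p = 0.25) and −0.52 ± 0.27 (adjusted p = 0.47). The score leaned on sg_46201, at −1.43 under DMSO and −1.38 under RUX, while its other guides had −0.62 to −0.23 under DMSO. Under RUX these had −0.40 to −0.10. Without this guide CHD8 was at −0.43 under DMSO and −0.23 under RUX. Its place below −0.5 under RUX also rested on RUX replicate 1, without which it was at −0.39.

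CHD7, the paralog of CHD8 that is mutated in CHARGE syndrome, stood at −0.11, −0.13, −0.50 and −0.19 under DMSO and at −0.25, −0.05, −0.04 and 0.02 under RUX. The lowest value was from DMSO replicate 3. CHD2 had means of −0.48 ± 0.19 under RUX and −0.38 ± 0.20 under DMSO, again with 1 guide far from the rest, sg_3128 at −1.21 under RUX against −0.48 to −0.02 for the others. Leaving out RUX replicate 1 or 2 put CHD2 below −0.5, at −0.53 or −0.54. Its DMSO mean was −0.48 without DMSO replicate 3. CHD1, which binds methylated histone H3 at active genes, was at 0.26 and 0.23. In the order of CHD8, CHD2, CHD7 and CHD1 under RUX, the libraries of CHD8 and CHD2 overlapped, and those of CHD1 lay above all 12 values of the others.

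INO80, the ATPase of its complex, was below the threshold under DMSO alone. It scored −0.36, −0.47, −0.99 and −0.62 under DMSO and −0.55, −0.51, 0.04 and −0.63 under RUX. The lowest value came from DMSO replicate 3 and the highest from RUX replicate 3, and either of these libraries set which side of −0.5 the mean was on. The DMSO mean was −0.61 ± 0.27, and −0.48 without DMSO replicate 3. The RUX mean was −0.41 ± 0.31, and −0.56 without RUX replicate 3. Its guides ran from sg_40316, at −1.41 under DMSO and −0.98 under RUX, to sg_40315, at −0.04 and 0.13, and neither condition passed (adjusted p = 0.39 and 0.64). The place below −0.5 under DMSO also rested on sg_40316, without which INO80 was at −0.34 under DMSO and −0.22 under RUX.

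ACTR5 and ACTR8, actin-related proteins that are particular to the INO80 complex, scored closer to the control guides. ACTR5 was at −0.15, 0.07, 0.14 and 0.03 under DMSO and at 0.07, −0.01, −0.17 and −0.11 under RUX. ACTR8 was at 0.06, −0.36, −0.21 and 0.11 under DMSO and at 0.13, 0.12, 0.23 and 0.18 under RUX. It was the one gene of the 40 whose conditions did not overlap, all RUX values lying above all DMSO values.

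RUX was set against DMSO to ask which knockouts change their cost under JAK inhibition, and no remodeler passed. At limma's adjusted p, 0 of the 40 genes differed, against 0.0419% of all genes. At an unadjusted p under 0.05, 1 of the 40 genes was lower under RUX (ARID1A), against 6.31% of all genes, and 1 was higher (ACTR8), against 3.14%. On summed reads edgeR and DESeq2 also called 0. Without overlap of the 4 and 4 libraries, 0 genes were lower under RUX, against 2.99% of all genes, and 1 was higher, against 1.96%.

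For ACTR8 the difference of RUX minus DMSO was 0.26, with a 95% interval from 0.00 to 0.52 (adjusted p = 0.42). The exact two-sided permutation test gave p = 0.029, the smallest that 4 against 4 libraries can give. This p follows from the lack of overlap by which ACTR8 was picked, so it adds no support. The difference was 0.14 with edgeR on summed reads and 0.17 without DMSO replicate 2. Guides sg_56606 and sg_56608 made most of it, at −0.22 and 0.16 under RUX and −0.68 and −0.22 under DMSO, while sg_56607 stood at 0.33 and 0.37. For ARID1A the difference was −0.29, from −0.60 to 0.01 (adjusted p = 0.45, exact permutation p = 0.057), and −0.22 without DMSO replicate 3. It was lower under RUX for 3 of its 4 guides.

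For the remaining genes the differences lay between −0.26, for DPF1, and 0.22, for PBRM1. BPTF differed by −0.16 (interval −0.45 to 0.13), SMARCB1 by −0.20 (−0.46 to 0.07), CHD8 by 0.16 (−0.22 to 0.55), INO80 by 0.20 (−0.20 to 0.59) and RUVBL1 by 0.04 (−0.37 to 0.44). Some of these values leaned on 1 library. The difference of INO80 was 0.05 without RUX replicate 3 and 0.07 without DMSO replicate 3. For CHD8, leaving out RUX replicate 3 gave 0.08 and leaving out RUX replicate 1 gave 0.29, and SMARCB1 was at −0.12 without RUX replicate 3. The difference of RUVBL1 went to 0.01 without DMSO replicate 3 and turned to −0.003 without RUX replicate 2. The intervals of 33 of the 40 genes lay within −0.5 and 0.5, and 1, that of ACTR8, left out 0. That of ARID1A held 0 although its unadjusted limma p was 0.021. The intervals were set at 6 degrees of freedom, fewer than limma uses for its p, and so are wide. The intervals of the other 7 genes reached past −0.5 or 0.5, with −0.62 and 0.59 as the outermost bounds. At this width a difference of 0.5 was not excluded for these 7. Among the mock genes the difference ran from −0.26 to 0.32, and 38 of the 40 remodelers lay in this range, 95% against 95.9% of all genes.

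**Figure D4:**
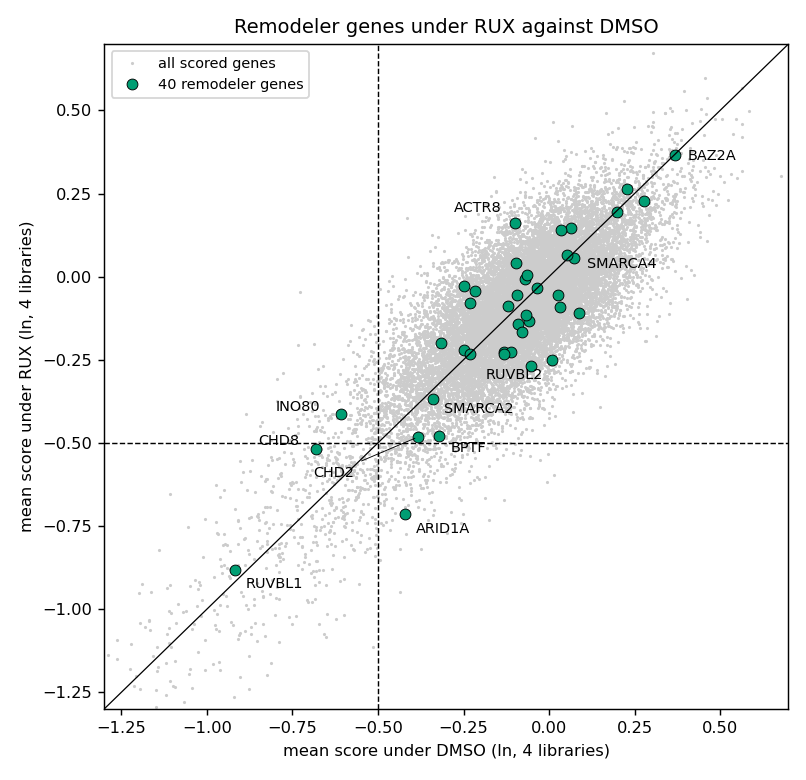
Mean score under RUX against mean score under DMSO (ln, 4 libraries each), with grey points for all scored genes inside the axes, green points for the 40 remodelers, dashed lines at −0.5 and a diagonal of equal scores. RUVBL1 and CHD8 lie past both lines, ARID1A past the RUX line, INO80 past the DMSO line, and ACTR8 lies above the diagonal.

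A list of 42 other remodeler genes, of subunits and ATPases outside these 40, was read in the same way. Of them 4 lay below −0.5 under RUX, against 4.63% of all genes, and 3 under DMSO, against 4.32%. Their medians were −0.16 and −0.15. At limma's adjusted p, 1 of the 42 was lower than day 0 under RUX, against 1.58% of all genes, and 0 under DMSO, against 1.15%. SMARCAL1, an annealing helicase of stalled replication forks, was at −0.84 under RUX and passed there (adjusted p = 0.029), and stood at −0.79 under DMSO without passing (adjusted p = 0.057). YY1, a DNA-binding partner of INO80, was at −0.73 and −0.60, RSF1, a partner of SMARCA5, at −0.56 and −0.46, the NuRD ATPase CHD4 at −0.51 and −0.44, and ATRX, which deposits histone H3.3 with DAXX, at −0.35 and −0.66. The place of RSF1 below −0.5 under RUX rested on RUX replicate 1, without which it was at −0.35, and CHD4 was at −0.45 without RUX replicate 2 or 3. Between RUX and DMSO, limma called 0 of the 42 at its adjusted p. At an unadjusted p under 0.05, 2 were lower under RUX, against 6.31% of all genes, YEATS4 at −0.22 against 0.08 and BICRA (listed as GLTSCR1) at −0.06 against 0.17, RUX first. Without RUX replicate 3, BICRA (GLTSCR1) was at 0.06 under RUX and its difference went from −0.23 to −0.11. By lack of overlap between conditions, 1 of the 42 was lower under RUX, against 2.99% of all genes, and 0 were higher, against 1.96%. The lower one was the BAF subunit SS18L1, at −0.25 under RUX and −0.11 under DMSO (limma adjusted p = 0.61). These last genes were picked after their values were seen.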

How the data were processed

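The authors counted guide reads with MAGeCK 0.5.9.3 and deposited values per guide, a signal equal to whole reads times 1 factor per library (100% whole within 0.001 after division). The submitters' notes also name Subread, featureCounts 2.0.1 and hg38. In R 4.3.3, libraries were rescaled to the median ratio of the 1000 control guides and genes scored with a pseudocount of 5, leaving out guides under 30 at day 0 and genes with fewer than 2 guides left (19112 genes kept). Mean ln values of all 9 libraries entered limma 3.58.1, with 1 mean per condition, a variance trend over abundance and Benjamini-Hochberg adjustment over all genes at 0.05. Day 0, with 1 library, took the spread of the day 12 libraries. Intervals are 95%, from limma's moderated error with the 6 residual degrees of freedom. limma's p-values use more, so an interval can hold 0 where the unadjusted p is under 0.05. The methods describe treatment in quadruplicate, while the labels name no separate cultures, so p-values measure the spread between libraries, part of which may be technical. The limma step was tested on simulated data with the same guide spread in every library. A library with a wider spread, such as DMSO replicate 3, was not simulated. GENCODE 44 placed 17949 genes by symbol and 983 by an older symbol on GRCh38.

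The members and lists were chosen with earlier results of these data known. Genes were given in full if below −0.5, called, or without overlap between conditions, with their paralogs, and SMARCA2 always. Alternatives were other scalings, pseudocounts, filters, guide summaries, neighbour subtraction, a replicate block, each library left out, and edgeR 4.0.16 and DESeq2 1.42.0 on recovered reads summed per gene. A copy number profile of HEL cells was not used here.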

Additional observations from a re-analysis of the deposited data

Results flagged for a closer look

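In 2 of 80 sets of 4 libraries, 1 library of a remodeler gene stood far from the other 3, where chance alone flags about 4. ARID1B scored 0.81 in DMSO replicate 3 and 0.06 to 0.15 in the other DMSO libraries. DPF3 scored 0.26 in DMSO replicate 3 and −0.16 to −0.10 in the others. Both values came from the library whose control guides spread widest, with an SD of 0.46 against 0.26 to 0.30, and the part of that spread in them was not tested.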

How the results depend on the processing

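The call of ARID1A against day 0 under RUX, the 1 remodeler called, was the result that moved most. The count became 0 with libraries scaled to totals or over all guides, with values as deposited, with a pseudocount of 1, with a day 0 value of at least 100, with the median over guides, without the farthest guide, with the neighbour median subtracted, with edgeR, with DESeq2, and with ln ratios to day 0 in limma, the last chosen after seeing the data. It became 2, RUVBL1 added, with a pseudocount of 20, with no day 0 filter and with no variance trend. Leaving out 1 library gave 0 to 2 calls, with 0 without DMSO replicate 4 or RUX replicates 2, 3 or 4, and 2 without DMSO replicate 3. Under DMSO the count of 0 became 1, RUVBL1, with a pseudocount of 20, with no day 0 filter and with no variance trend. The 3 genes below −0.5 under DMSO became 1, RUVBL1, without the farthest guide. They became 2 without DMSO replicate 3 or with the neighbour median subtracted. Below −0.5 under RUX lay 2 to 4 genes. Between RUX and DMSO 0 remodelers were called under every alternative run.

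Over all genes, calls under RUX went from 302 to between 77 (median over guides) and 394 (without DMSO replicate 3), calls between RUX and DMSO from 8 to between 0 (no variance trend, ln ratios) and 52 (DESeq2), and genes below −0.5 under RUX from 884 to between 516 (neighbour median subtracted) and 1060 (day 0 value of at least 100). Calls under DMSO went from 222 to between 50 (median over guides) and 278 (no variance trend), and genes below −0.5 under DMSO from 825 to between 431 (edgeR, DESeq2) and 957 (pseudocount 1).

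The replicate numbers of DMSO and RUX libraries did not pair them, with correlations of −0.13 to 0.03 between same-numbered libraries. With a replicate block, 1, 0 and 0 remodelers were called under RUX, under DMSO and between them, and over all genes 301, 206 and 13. Of 2757 scores and differences of single remodelers, 2599 moved by less than the spread between replicates. The scores below the reference line, with the called score of ARID1A under RUX among them, turned sign in 0 alternatives. The 2599 include values that an alternative cannot move, such as a score under RUX without a DMSO library. No difference was called, so the count of 0 says nothing about the differences. Values that were not called did turn sign, the difference of BRD7 in 12 of 23 alternatives and the PBRM1 score under RUX in 7. The difference of ARID1A turned sign in 0. The single day 0 library and guides with fewer than 100 reads limit the precision, since 1 guide can carry a gene's score.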
